A study of Mus musculus with 4 samples.

Results

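The genes described here encode the mouse receptors for the constant (Fc) part of immunoglobulin G and their close relatives. They were chosen by symbol in the deposited table of expected counts, and all 7 were found among 25509 listed genes: Fcgr3, Fcgr2b, Fcgr4, Fcgr1, Fcer1g, Fcer1a and Fcrla. The choice was made because Fcgr3 and Fcgr2b had already been seen to differ between the genotypes in these 4 libraries, so their levels and fitted fold changes are given as a description, with no p-value. The libraries came from naive splenic CD4+ T cells of mice, sorted as CD25-negative, CD62L-high and CD44-low cells. Stimulation lasted 72 h and used anti-CD3 and anti-CD28 with TGF-beta, IL-4 and TL1A, a treatment that the labels call a Th9 condition and whose last cytokine one label spells TLA1. There were 2 libraries from WT cells and 2 from Batf3-/- cells, which lack a transcription factor of the AP-1 superfamily. The labels give no strain, age or sex of the mice and do not say which part of Batf3 the allele lacks. The titles give both libraries numbered 1 the prefix E85 and both numbered 2 the prefix E87, without saying what it marks. They name no mouse or culture, but the libraries of each genotype differed widely in Xist (values below), so they were not repeats of a single RNA sample. Paired values below are in the order of replicates 1 and 2.

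Receptors for IgG link antibodies to the cells of the immune system. Activating receptors, encoded in the mouse by Fcgr1, Fcgr3 and Fcgr4, bind IgG through their own chain but signal through the ITAM, a paired-tyrosine motif, of a small partner, the common gamma chain encoded by Fcer1g. Fcgr2b encodes the single inhibitory receptor of the family, which carries an ITIM in its own tail and recruits the phosphatase SHIP1. These genes are known chiefly from macrophages, neutrophils, mast cells, natural killer (NK) cells and, for Fcgr2b, B cells.

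Fcgr3 (ENSMUSG00000059498.13, GRCm38 chr1:171051174-171064935, minus strand, protein coding) and Fcgr2b (ENSMUSG00000026656.15, chr1:170958617-170976547, minus strand, protein coding) are near copies in the part that binds antibody. In the annotated transcripts Fcgr3-201 and Fcgr2b-201 (GENCODE M21), 509 bases aligned without a gap, with 18 mismatches, which is an identity of 96.5%. The stretch covers exons 3 and 4 of both genes, which encode the extracellular immunoglobulin-like domains. The 4 sequences below are these exons from the GRCm38 reference transcripts, shown because reads from them are the ones that could be assigned to either gene. Each runs 5′ to 3′ along the transcript, and capitals mark the bases that differ between the genes.

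Fcgr3 exon 3, aligned part, chr1:171057691-171057944: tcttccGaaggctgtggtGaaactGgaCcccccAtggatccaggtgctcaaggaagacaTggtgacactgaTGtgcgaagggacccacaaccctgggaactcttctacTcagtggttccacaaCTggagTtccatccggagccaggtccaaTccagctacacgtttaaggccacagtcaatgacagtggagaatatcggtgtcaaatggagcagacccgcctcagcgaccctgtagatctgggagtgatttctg
Fcgr2b exon 3, aligned part, chr1:170967980-170968233: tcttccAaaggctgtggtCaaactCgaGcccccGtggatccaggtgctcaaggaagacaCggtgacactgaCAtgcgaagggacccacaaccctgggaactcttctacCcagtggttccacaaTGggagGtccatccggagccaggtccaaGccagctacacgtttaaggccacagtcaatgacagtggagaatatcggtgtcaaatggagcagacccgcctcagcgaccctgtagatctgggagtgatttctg
Fcgr3 exon 4, chr1:171053939-171054193: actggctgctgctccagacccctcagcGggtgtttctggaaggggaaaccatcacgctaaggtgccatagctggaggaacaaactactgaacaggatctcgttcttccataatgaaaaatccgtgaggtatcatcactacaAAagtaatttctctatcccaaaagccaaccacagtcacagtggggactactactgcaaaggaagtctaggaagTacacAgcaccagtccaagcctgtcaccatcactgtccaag
Fcgr2b exon 4, chr1:170966446-170966700: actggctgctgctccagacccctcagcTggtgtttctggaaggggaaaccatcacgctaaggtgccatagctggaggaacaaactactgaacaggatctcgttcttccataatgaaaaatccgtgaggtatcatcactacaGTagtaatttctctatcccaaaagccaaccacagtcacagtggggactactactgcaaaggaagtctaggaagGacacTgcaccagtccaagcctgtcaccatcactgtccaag

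Exon 3 held 13 of the mismatches over 254 bases, and exon 4 held 5 over 255 bases. The longest identical run was 129 bases and spanned the junction of the exons, so a 75-base read, the length used here, could lie wholly inside it. Of the 1273 windows of 75 bases in Fcgr3-201, 94 (7.38%) were identical in Fcgr2b. Among the 727 windows inside the coding part of Fcgr3, the share with a counterpart in Fcgr2b rose from 12.9% for identical windows to 26.7% with up to 1 mismatch and 42.4% with up to 2. Windows outside this stretch had no aligned counterpart. The other members were far more distinct: 0 windows of Fcgr4, Fcgr1, Fcer1g, Fcer1a and Fcrla were identical to a window of another annotated gene. Fcgr2b has 62 further windows that recur in 22 genes outside the family.

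**Figure D1:**
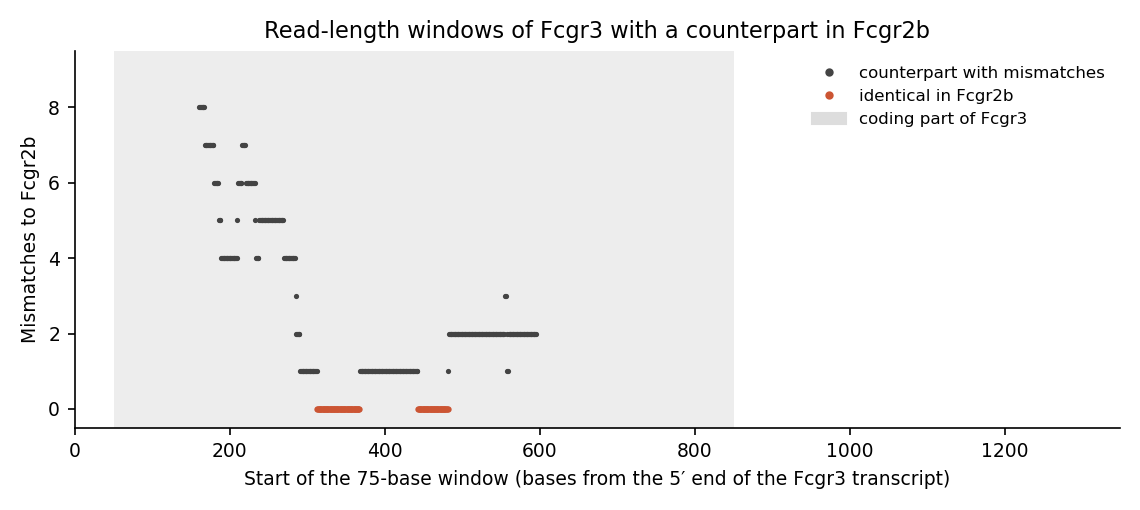
Each point is a 75-base window of the transcript Fcgr3-201 that has an aligned counterpart in Fcgr2b-201, placed by its start along the transcript (x, bases from the 5′ end) and its number of mismatches to Fcgr2b (y). The 94 windows without a mismatch lie in the middle of the coding part, which is shaded, and windows of the 3′ end have no counterpart.

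Fcgr3, the low-affinity activating receptor for IgG, was nearly silent in WT cells and clearly present in Batf3-/- cells. The WT libraries held 4 and 9 counts of it, the Batf3-/- libraries 570.24 and 218.30. As CPM, the count scaled to library size, the WT libraries stood at 0.171 and 0.328 and the Batf3-/- libraries at 17.9 and 14.1. Both Batf3-/- libraries were high, both WT libraries were low, and the groups did not overlap. Counting error alone puts the WT libraries between 0.0467 and 0.439 CPM and between 0.150 and 0.623 CPM (exact 95% Poisson intervals), so that they could not be told apart at this depth. WT averaged 0.250 ± 0.111 CPM and Batf3-/- cells 16.0 ± 2.71 CPM (SD, n = 2 each), a 64.2-fold difference. In a fit across all genes the log2 fold change was 5.95 (SE 0.401). Within replicate numbers 1 and 2 the log2 ratios, taken after 0.5 was added to each count, were 6.54 and 5.35. The Batf3-/- mean exceeded the mean of 38.6% of the 12135 genes with enough counts to be tested, whereas the WT mean exceeded that of 0.297%. In these bulk samples, more cells that express the gene and more RNA per cell cannot be told apart.

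Fcgr2b, the inhibitory receptor, was assigned counts in Batf3-/- cells alone and at a much lower level than Fcgr3. Both WT libraries were at 0, and the Batf3-/- libraries held 33.76 and 21.70 counts. These counts correspond to 1.06 and 1.40 CPM, a mean of 1.23 ± 0.241 CPM (SD, n = 2). Again the groups did not overlap. Against a floor of 3 counts in each WT library, the counts assigned to Fcgr2b were at least 10.4-fold higher in Batf3-/- cells. This bound takes the assigned counts as given and does not cover the division of reads with Fcgr3. Per kilobase of annotated exon, the Batf3-/- levels were 9.23 ± 1.56 RPKM for Fcgr3 and 0.213 ± 0.0416 RPKM for Fcgr2b (SD, n = 2). The exon lengths used, over all transcripts of each gene, were 1736 and 5790 bases. In the transcripts aligned above they were 1347 and 3544 bases. Both values depend on this choice, and also on the division of reads between the genes. Of the 7 genes only these 2 had enough counts to be tested. Both were among the 10 genes called higher in Batf3-/- cells in the fit across all genes, which made up 0.0824% of those tested, against 0.0494% called lower; since that difference led to their choice, nothing is read from it. Libraries that do not overlap, with Batf3-/- higher, were found for 18.2% of all tested genes.

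The division of reads between Fcgr3 and Fcgr2b is uncertain. RSEM splits a read that fits several genes, and both genes carried fractional counts in both Batf3-/- libraries. Their sums were whole: 604 in Batf3-/- replicate 1 and 240 in replicate 2, within 0.02 of a count. Of 2050 other genes with fractional counts in both of these libraries, 5 also gave a whole sum with Fcgr3 in both. In WT the counts of both genes were whole, with none for Fcgr2b. The share of the summed reads given to Fcgr2b was 5.59% in Batf3-/- replicate 1 and 9.04% in replicate 2. Their Wilson 95% intervals, 4.06% to 7.76% and 6.13% to 13.5%, overlapped. How many of these reads fitted Fcgr2b alone cannot be read from expected counts. As a single unit, which does not depend on the split, the pair averaged 0.250 ± 0.111 CPM over the WT and 17.3 ± 2.47 CPM over the Batf3-/- libraries (SD, n = 2), a 69.1-fold difference, with a log2 fold change of 6.06.

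**Figure D2:**
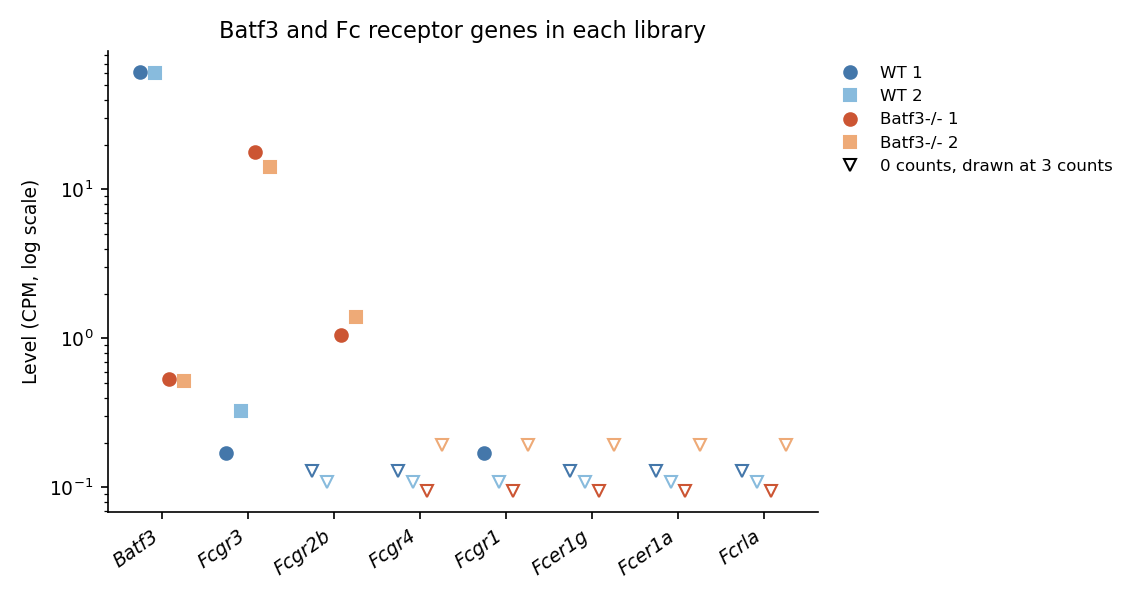
Level of Batf3 and of the 7 Fc receptor genes (x) in each library, in CPM on a log scale (y); each point is 1 library, and open triangles stand for 0 counts, drawn at the level of 3 counts. Fcgr3 and Fcgr2b are above the floor in both Batf3-/- libraries, and the other Fc receptor genes are at 0 there.

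The other ligand-binding chains were absent or at the limit of detection in both genotypes. Fcgr4 (ENSMUSG00000059089.4, chr1:171018920-171029761, plus strand), the activating receptor for IgG2 subclasses, was at 0 in all 4 libraries although it lies between Fcgr2b and Fcgr3, 21.4 kb from the latter. Fcgr1 (ENSMUSG00000015947.10, chr3:96282909-96293969), the high-affinity receptor and the only member outside chromosome 1, was seen with 4 counts in a single library, WT replicate 1. Fcer1a (ENSMUSG00000005339.10, chr1:173221284-173227214), the IgE-binding chain of mast cells and basophils, was at 0 in all libraries. So was Fcrla (ENSMUSG00000038421.13, chr1:170917576-170927583), an intracellular Fc receptor-like gene of B cells that adjoins the cluster. With 0 counts a level of up to 3 counts remains possible, which is 0.129 and 0.109 CPM in the WT and 0.0944 and 0.194 CPM in the Batf3-/- libraries. Of the 7 genes, 4 were at 0 in all libraries.

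The partner chain was among those at 0. Fcer1g (ENSMUSG00000058715.11, chr1:171229572-171234365, minus strand), whose product carries the signal of the activating receptors and is needed for their display on the surface of many cells, had no count in any of the 4 libraries. It lies 165 kb from Fcgr3. Its transcripts hold 870 windows of 75 bases and none is shared with another gene, in GENCODE M21. Per kilobase, Fcgr3 was at least 95.7-fold above the Fcer1g floor of 3 counts in Batf3-/- replicate 1 and at least 36.6-fold above it in replicate 2. Other adaptors of the myeloid and NK lineages were missing too: Tyrobp, encoding DAP12, and Ms4a2, the beta chain of the IgE receptor, were at 0 in all libraries.

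T cell adaptor chains were abundant in both genotypes. Cd247 encodes the zeta chain of the T cell receptor complex, a relative of the gamma chain that also pairs with the IgG receptor CD16 in human NK cells. The WT libraries held 140 and 132 CPM, the Batf3-/- libraries 165 and 162 CPM (edgeR quasi-likelihood test, adjusted p = 0.958, with a log2 fold change of 0.27 and SE 0.183). Both Batf3-/- libraries lay above both WT libraries, as for 18.2% of all tested genes, and the difference did not pass the test. Per kilobase, Cd247 was 2.99-fold above Fcgr3 in Batf3-/- replicate 1 and 3.75-fold above it in replicate 2. Hcst, encoding the adaptor DAP10, averaged 4.14 ± 0.446 CPM over WT and 6.19 ± 0.479 CPM over Batf3-/- libraries (SD, n = 2; log2 fold change 0.57, SE 0.290, adjusted p = 0.958, edgeR). Of the 8 adaptor chains on the list 5 were tested, Fcer1g not among them, and 0 passed in edgeR or in DESeq2, with 0 at an unadjusted p under 0.05. Over all tested genes edgeR called 0.132%, and 4.8% had an unadjusted p under 0.05.

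**Figure D3:**
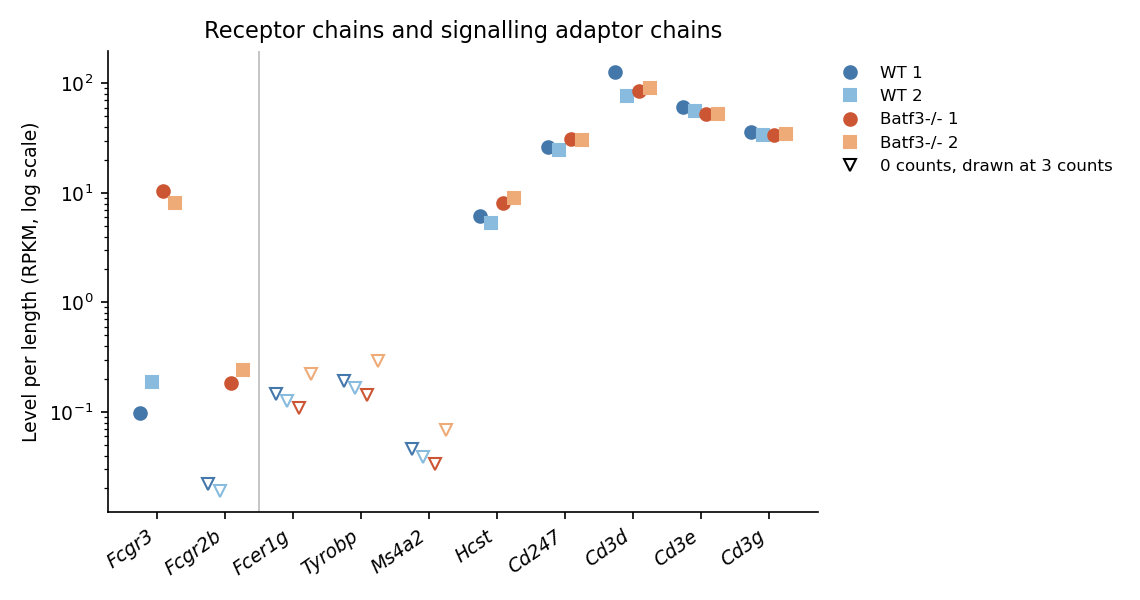
Level per kilobase of annotated exon (RPKM, log scale) of Fcgr3 and Fcgr2b, left of the line, and of signalling adaptor chains, right of it; each point is 1 library, and open triangles stand for 0 counts, drawn at 3 counts. Fcer1g, Tyrobp and Ms4a2 are at 0 in every library, whereas Cd247 and the CD3 chains lie above Fcgr3 in every library.

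Further receptors and binders of antibody were also examined. Of 11 such genes, 5 were tested and 0 passed in edgeR or DESeq2, against 0.132% of all tested genes in edgeR. At an unadjusted p under 0.05 there was 1 of the 5, against 4.8% of all tested genes. That gene, Pigr, which encodes the transporter of polymeric IgA and IgM, held 0.771 and 1.79 CPM in the WT and 2.89 and 2.39 CPM in the Batf3-/- libraries. By edgeR its log2 fold change was 1.04 (SE 0.420), with an unadjusted p = 0.0229 and an adjusted p = 0.917. Without WT replicate 2 it passed in edgeR, at 1.79 (adjusted p = 0.0330), in a fit that called 4.46% of all tested genes, or 553. Without WT replicate 1 it was 0.58 (edgeR, adjusted p = 0.888). Trim21, a cytosolic IgG receptor, averaged 9.72 ± 1.59 CPM over WT and 7.41 ± 2.34 CPM over Batf3-/- libraries (SD, n = 2; adjusted p = 0.958, edgeR). The median log2 fold change of the 5 genes was -0.09, against -0.01 for all tested genes. Among 6 other receptors that signal through the gamma chain, 0 reached the level for testing, and Ncr1, Gp6, Clec4e, Clec4n and Klrb1c were at 0 in all libraries. Antibody chain genes other than Jchain were not analysed here, and Jchain was seen with 2 counts in Batf3-/- replicate 1 alone.

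Genes that act downstream of activating receptors came next. Of 32 kinases, adaptors and enzymes of ITAM signalling 28 were tested, and 0 passed in edgeR or DESeq2, with 0 at an unadjusted p under 0.05. Over all tested genes these shares were 0.132% in edgeR and 4.8%. The log2 fold changes of the 28 ran from -0.76 to 0.60 with a median of 0.08, against -0.01 for all tested genes. Of the 28, 17 were positive and 11 negative. The smallest p-values belonged to Malt1, the paracaspase that links antigen receptors to NF-kB, at 708 ± 45.8 CPM over WT and 559 ± 59.1 CPM over Batf3-/- libraries, and to the kinase gene Src, at 8.37 ± 0.345 and 11.2 ± 2.47 CPM (SD, n = 2; adjusted p = 0.958 each, edgeR). Zap70, the kinase that reads T cell receptor ITAMs, averaged 225 ± 18.6 and 275 ± 8.35 CPM in WT and Batf3-/- libraries. Syk, its relative that serves Fc receptors in myeloid cells, stood at 1.06 ± 0.714 and 1.62 ± 0.195 CPM. The kinase gene Lyn stood at 0.750 ± 0.0301 and 0.413 ± 0.127 CPM (SD, n = 2).

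The phosphatases and adaptors that oppose such signals were expressed as well. Inpp5d, encoding SHIP1, the main effector of the Fcgr2b product, averaged 121 ± 17.4 and 127 ± 8.92 CPM in WT and Batf3-/- libraries, and Ptpn6, encoding SHP-1, at 238 ± 0.188 and 247 ± 4.68 CPM (SD, n = 2). Of 14 inhibitory signalling genes 13 were tested, with a median log2 fold change of 0.05. In edgeR or DESeq2 0 passed, against 0.132% of all tested genes in edgeR. At an unadjusted p under 0.05 there was 1 of the 13 (7.69%), against 4.8% of all tested genes. That gene was Dok2, an adaptor that restrains Ras signalling, at 45.8 and 41.9 CPM in the WT and 78.9 and 66.5 CPM in the Batf3-/- libraries. As for 18.2% of all tested genes, both Batf3-/- libraries were higher, without overlap (edgeR log2 fold change 0.73, SE 0.192, adjusted p = 0.294, unadjusted p = 0.00123). Dok2 passed in edgeR without WT replicate 1 (0.78, adjusted p = 0.0413) and without WT replicate 2 (0.67, adjusted p = 0.0381), fits that called 0.495% and 4.46% of all tested genes. It did not pass without Batf3-/- replicate 1 (0.60, edgeR, adjusted p = 0.99979) or Batf3-/- replicate 2 (0.85, adjusted p = 0.676). With the replicate number as a block, a fit that called 0.923% of all tested genes, it passed (0.73, edgeR, adjusted p = 0.0153). Pag1, which anchors the inhibitory kinase Csk, stood at 24.2 ± 0.156 and 18.5 ± 2.02 CPM (SD, n = 2; adjusted p = 0.958, edgeR).

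Of 16 other receptors with ITIM-type tails, 9 were tested and 0 passed in edgeR or DESeq2, against 0.132% of all tested genes in edgeR. At an unadjusted p under 0.05 there were 0, against 4.8% of all tested genes. The median log2 fold change of the 9 was -0.06. Btla, an inhibitory receptor of lymphocytes, held 329 and 211 CPM in the WT and 216 and 195 CPM in the Batf3-/- libraries (log2 fold change -0.40, SE 0.214, adjusted p = 0.958, edgeR). The groups overlapped. Without WT replicate 2 it passed in edgeR, at -0.68 (adjusted p = 0.0150), in the fit that called 553 genes, and without WT replicate 1 it was -0.052 (adjusted p = 0.997). Lair1, a collagen receptor, stood at 14.8 ± 2.32 and 11.4 ± 3.30 CPM (SD, n = 2; adjusted p = 0.958, edgeR).

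The cells carried T cell markers at like levels in all libraries, with sums over 10 genes of 3286 and 3200 CPM in the WT and 3253 and 3308 CPM in the Batf3-/- libraries, led by Lck. Depth ran from 15624874 to 31098059 counts per library. Batf3 itself held 61.7 and 60.5 CPM in the WT libraries against 0.535 and 0.517 CPM in those labelled Batf3-/-. Xist, an X-linked RNA of female cells, split the libraries by replicate number, being at most 0.214 CPM in both replicates 1 and at least 144 CPM in both replicates 2. Each genotype thus had 1 library at each level of Xist. Fcgr3 and Fcgr2b were above both WT libraries in Batf3-/- replicate 1 and in replicate 2, and a link to Xist was not tested.

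Markers of the cells in which Fc receptors are best known were low in all 4 libraries. The 10 macrophage and monocyte markers summed to 4.59 and 3.59 CPM in the WT and 3.92 and 3.63 CPM in the Batf3-/- libraries, mostly from Cd68. Without Cd68 the sums were 0.262 and 0.571 against 0.770 and 0.658 CPM, higher in both Batf3-/- libraries. Lyz2, Mpeg1, C1qa and C1qb were at 0 in all libraries. The 10 mast cell and basophil markers summed to 5.01 and 3.13 against 2.14 and 5.11 CPM, mostly from Kit. Of the 10, 7 were at 0 throughout, among them Cpa3 and Mcpt8. Without Kit the sums were 0.643 and 0.911 against 0.409 and 0.517 CPM, lower in both Batf3-/- libraries. The 8 NK cell markers summed to 2.79 and 2.55 against 3.05 and 2.97 CPM, mostly from Nkg7, with Ncr1 and Klrb1c at 0. This whole sum was higher in both Batf3-/- libraries. Without Nkg7 the sums were 0.814 and 0.692 against 0.566 and 0.388 CPM, lower in both Batf3-/- libraries. Dendritic cell markers summed to 9.43 and 7.76 against 7.42 and 6.66 CPM, led by Zbtb46, with Clec9a and Clec10a at 0. Neutrophil markers reached at most 0.0646 CPM in any library, from Ly6g, with S100a8 and S100a9 at 0.

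B cell markers summed to 26.1 and 27.3 against 24.1 and 26.0 CPM, nearly all from Ebf1 and Cd79b, while Ms4a1 was at 0 in all libraries. Platelet and erythroid markers, led by Itga2b, summed to 1.43 and 0.874 against 1.73 and 1.69 CPM, higher in both Batf3-/- libraries. Whether these, the NK cell markers or the macrophage and monocyte markers have a part in the Fcgr3 result was not tested. The 3 measured markers of gamma-delta and CD8 T cells, led by Cd8b1, summed to 9.08 and 8.49 against 7.42 and 7.30 CPM. All 10 T cell markers had enough counts to be tested, but few others did. The numbers tested were 1 of 10 for macrophages and monocytes, 2 of 10 for mast cells and basophils, and 1 of 8 for NK cells. For dendritic cells they were 3 of 8, for neutrophils 0 of 8 and for B cells 2 of 9. The tests thus say little about cell types other than T cells. Over these lists 0 of the tested markers passed in edgeR or DESeq2, against 0.132% of all tested genes in edgeR. With an unadjusted p under 0.05 there were 0, against 4.8% of all tested genes.

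**Figure D4:**
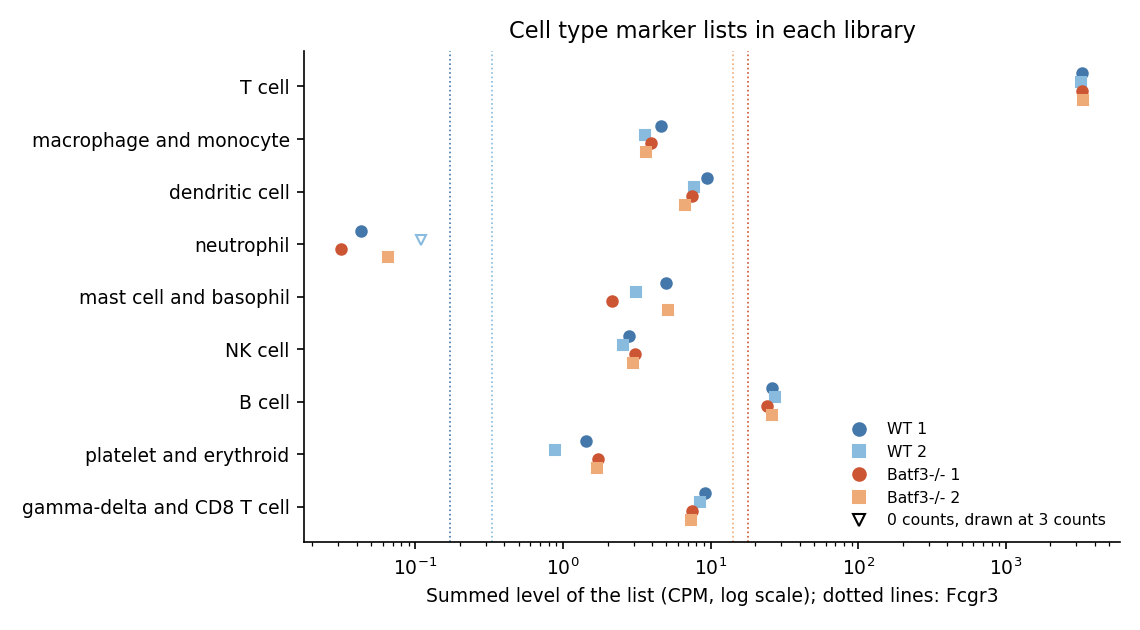
Summed level of each cell type marker list (y) in each library, in CPM on a log scale (x); each point is 1 library, the open triangle stands for 0 counts drawn at 3 counts, and dotted lines show Fcgr3 in each library. T cell markers sum to 3200 CPM or more in every library, and the lists of other cell types lie far lower in both genotypes.

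Fcgr3 lies 20.0 Mb from Batf3 on chromosome 1. A part of this position in the values of Fcgr3, Fcgr2b or their neighbours was not tested. The gene order on the reference is Fcrlb, which is not a member, Fcrla, Fcgr2b, Fcgr4, Fcgr3 and, further on, Fcer1g and Fcer1a. The last 6 are the members on chromosome 1. Of these, Fcgr3 and Fcgr2b alone had a count. Within 500 kb of Fcgr3 the table lists 34 genes other than the members, of which 19 were tested. In edgeR 0 passed, against 0.132% of all tested genes, and 0 passed in DESeq2. An unadjusted p under 0.05 was found for 7 of the 19 (36.8%), against 4.8% of all tested genes. Without WT replicate 2, Arhgap30 and Ppox passed in edgeR (adjusted p = 0.0131 and adjusted p = 0.0476), again in the fit that called 4.46% of all tested genes. The count of 7 fell to 1 without Batf3-/- replicate 1 and to 3 without Batf3-/- replicate 2. The 9 positive and 10 negative log2 fold changes had a median of -0.01.

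Apoa2, an apolipoprotein gene 160 kb from Fcgr3, had the smallest p of these neighbours. It held 15 and 14 counts in the WT libraries and 1 in each Batf3-/- library (edgeR log2 fold change -3.60, SE 1.04, adjusted p = 0.429, unadjusted p = 0.0025). Usf1, a basic helix-loop-helix transcription factor gene 346 kb from Fcgr3, held 33.9 and 31.3 CPM in the WT and 55.6 and 48.5 CPM in the Batf3-/- libraries (edgeR log2 fold change 0.68, SE 0.196, adjusted p = 0.431, unadjusted p = 0.00277). In both genes the groups did not overlap, a pattern found with Batf3-/- lower for 15.6% and higher for 18.2% of all tested genes. Sdhc, the closest tested neighbour at 62.2 kb, held 84.8 and 79.9 against 79.7 and 83.4 CPM, and the groups overlapped.

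**Figure D5:**
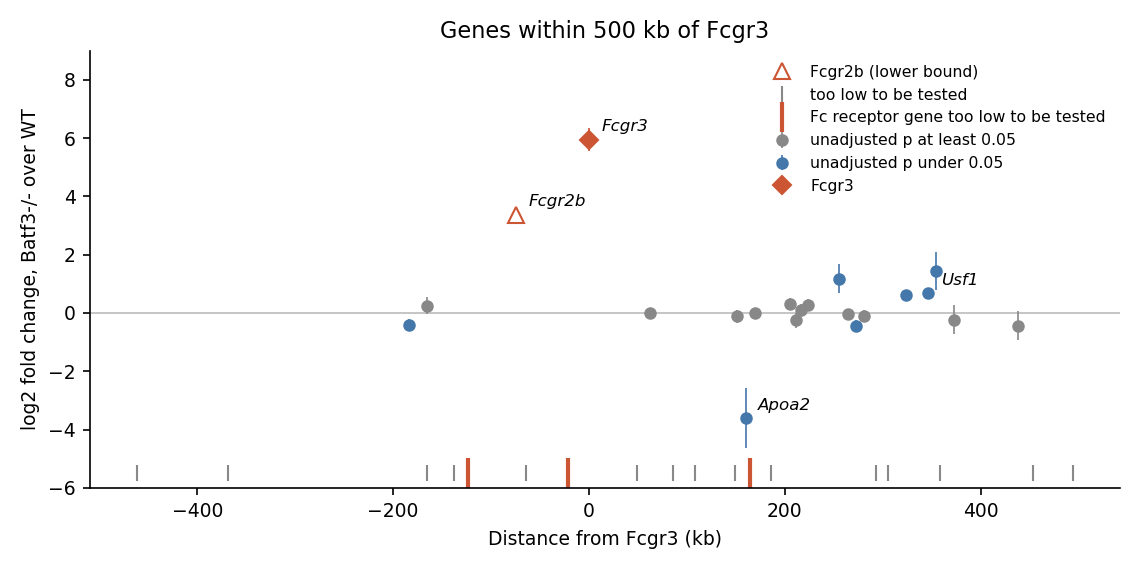
Log2 fold change of Batf3-/- over WT (y, bars are SE) for the tested genes within 500 kb of Fcgr3, by distance from it in kb (x). Fcgr2b is drawn at its lower bound for the counts as assigned, and ticks mark genes too low to be tested. Fcgr3 and Fcgr2b stand above all tested neighbours, and Fcrla, Fcgr4 and Fcer1g, the taller ticks, had too few counts.

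The promoters of the pair that was higher in Batf3-/- cells were read for sequences known to be bound by factors of this system. They are shown here as the 250 bases before a RefSeq start site (GRCm38.p6, minus strand, 5′ to 3′). All are in lower case because none of the motifs searched was found in them. Fcgr3 has a further RefSeq start site, at chr1:171059394, whose window is not shown and also held none. The annotated Fcgr3 gene reaches further upstream, to chr1:171064935, and sequence beyond these windows was not searched.

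Fcgr3 promoter, chr1:171059404-171059653: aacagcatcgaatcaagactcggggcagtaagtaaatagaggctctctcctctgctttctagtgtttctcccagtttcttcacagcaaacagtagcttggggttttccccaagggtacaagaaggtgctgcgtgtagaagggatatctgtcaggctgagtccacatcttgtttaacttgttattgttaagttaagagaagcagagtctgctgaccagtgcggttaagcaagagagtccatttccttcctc
Fcgr2b promoter, chr1:170976072-170976321: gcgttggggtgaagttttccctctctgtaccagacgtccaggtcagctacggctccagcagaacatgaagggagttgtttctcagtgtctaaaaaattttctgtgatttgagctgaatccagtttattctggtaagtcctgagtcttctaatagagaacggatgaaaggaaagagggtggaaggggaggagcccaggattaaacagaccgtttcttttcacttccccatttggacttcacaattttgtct

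The motifs, searched on both strands, were the AP-1 site TGANTCA, bound by BATF dimers, the joint AP-1 and IRF site, which is TTTC followed after 4 bases by that site, and the PU.1 site GAGGAAGT. In all 32851 RefSeq promoter windows of this length they were present in 6.75%, 0.0974% and 2.44%. All 7 members had an entry in the table, and among them the PU.1 site in the promoter of Fcgr4 was the single match. Only exact matches to these sequences were counted, with N as any base. Sites that vary from them were not searched, so the promoters may hold such variants. The gene for PU.1 itself, Spi1, was seen with 1 count, in WT replicate 2.

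The genes whose profile over the 4 libraries was most like that of Fcgr3 were mostly at the floor in WT. Profiles were compared as log2 CPM, with 0.5 added to each count, centred on each gene's mean. Likeness was the root mean square difference over the 4 libraries, whose median over 12133 other tested genes was 3.0. For a gene at 0 in WT, the added 0.5 and the depth set the WT part of its profile. For Fcgr2b the difference was 0.466. Nothing is read from it, since both genes were chosen for their difference between the genotypes and can share reads. The closest 5 genes outside the members were Hist1h2ai (0.481), Gm28635 (0.669), Eif4ebp3 (0.675), Lyplal1 (1.26) and Frzb (1.72). Hist1h2ai, a histone gene of a multicopy family, was at 0 in WT and held 30.02 and 20.12 counts in the Batf3-/- libraries. Gm28635 and Eif4ebp3, a gene for a binding protein of a translation initiation factor, were also at 0 in WT and reached 16.94 and 9.93 counts and 16.47 and 11.94 counts. For Lyplal1 the WT libraries held 4 and 2 counts and the Batf3-/- libraries 93 and 20. Of the 5 genes it alone lies on the chromosome of Fcgr3 and Batf3, at chr1:186087731-186117310, with Batf3 at chr1:191097847-191108945. A part of the position of Lyplal1 was not tested. Frzb, which encodes a secreted Wnt antagonist, held 2 and 2 counts in the WT and 16 and 11 in the Batf3-/- libraries. None of the 5 reached in Batf3-/- cells the level of Fcgr3; the highest mean was 2.11 ± 1.15 CPM for Lyplal1 (SD, n = 2), and fractional counts make the values of Hist1h2ai, Gm28635 and Eif4ebp3 uncertain.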

How the data were processed

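RNA-seq libraries (stranded poly(A) kit, 75-base single-end reads) were aligned with STAR 2.5.0 to GRCm38 and quantified with RSEM 1.2.25, per the submitters' processing notes; the values deposited by the authors are RSEM expected counts, which divide reads shared between genes. Annotation release and strand setting: not given in the sources used here. Expected counts were rounded for edgeR 4.0.16 (filterByExpr, TMM scaling, robust quasi-likelihood test, Benjamini-Hochberg adjustment over 12135 tested genes, threshold 0.05) in R 4.3.3, with DESeq2 1.42.0 as an alternative. CPM used TMM-scaled totals, and RPKM used GENCODE M21 exon lengths. Poisson and Wilson 95% intervals and the floor of 3 counts cover counting error only. The scripts were tested on simulated data.

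The members and gene lists were chosen with earlier results of these data known. The text names all members, up to 4 genes of a list that passed or otherwise the 2 with the smallest p, the highest gene of each marker list, the 2 neighbours with the smallest p and the 5 profiles most like that of Fcgr3. Other genes given with values, such as Zap70, Syk, Lyn, Inpp5d, Ptpn6, Sdhc, Xist and Spi1, were chosen after their values were seen. Replicates of a group differed by more than sampling noise. Alternatives were other scalings, filters, a replicate block, leaving out each library and summing Fcgr3 with Fcgr2b.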

Additional observations from a re-analysis of the deposited data

How the results depend on the processing

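Fcgr3 kept its direction under every alternative run, with a log2 fold change of 5.59 to 6.51 when 1 library was left out, the highest, 6.51, without WT replicate 2. The fitted value of Fcgr2b, 7.89, is no bound because both WT libraries are at 0: it was 7.41 in DESeq2, 3.98 with a prior count of 2 and 7.83 to 7.98 with 1 library left out. Its lower bound of 10.4-fold, which takes the assigned counts as given, was 8.95 to 11.8-fold with 1 library left out. Fcer1g could not be fitted.

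Calls over all genes numbered 16 (10 higher, 6 lower), against 28 (20 and 8) in DESeq2. Leaving out 1 library gave 18 to 553 calls, 11 to 301 of them higher and 7 to 252 lower; the 553 came without WT replicate 2, and there were 62 without WT replicate 1, 18 without Batf3-/- replicate 1 and 38 without Batf3-/- replicate 2. With the replicate block there were 112 calls (81 higher, 31 lower), with Fcgr3 at 5.93 and Fcgr2b at 7.95. The deviations of same-numbered libraries correlated at 0.108 over 12135 genes in 2 pairs. Same-numbered libraries share a title prefix, E85 or E87, whose meaning the labels do not give, and Xist splits the libraries the same way. Called inhibitory signalling genes rose from 0 to 1 with the block, Dok2, and were 0 to 1 with 1 library left out. Called neighbours of Fcgr3 were 0 to 2, the 2 being Arhgap30 and Ppox without WT replicate 2, and neighbours at an unadjusted p under 0.05 were 1 to 6.

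With 1 library left out, log2 fold changes crossed 0 for Cd3d (-0.54 to 0.19), Lck (-0.099 to 0.032), Cd68 (-0.49 to 0.014), Kit (-0.91 to 0.49), Ebf1 (-0.34 to 0.10) and Cd79b (-0.25 to 0.18). The positive values came without WT replicate 1 for Cd3d, Lck, Cd68, Kit (0.38) and Cd79b, without WT replicate 2 for Ebf1, and without Batf3-/- replicate 1 for Kit and Cd79b (0.10). The cause was not tested. Leaving out 1 of 2 libraries leaves a lone library that is assumed to vary like the other group.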
